A study of Mus musculus with 15 samples.

Results

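The 32 genes described here encode the enzymes of cholesterol synthesis and of fatty acid synthesis together with the proteins that sense sterols and switch these enzymes on. They were chosen by name, as the rows of the count table of sorted mouse intestinal epithelium that carry 1 of 32 gene symbols, and all 32 were found among its 24594 rows. The study profiled fetal and adult small intestinal epithelium, as sorted cells and as organoids, by RNA sequencing (15 libraries). The organoid table has no gene names, so its 9 libraries were not used here. The fetal group holds 3 libraries of C57Bl/6J proximal intestine at E16.5, late in gestation, sorted as EpCAM+, CD31- and CD45- living cells, for which the labels give no genotype. The adult group holds 3 libraries of wildtype C57Bl/6J crypt cells from the first 20% of the small intestine, sorted as EpCAM+, lineage-negative and CD24-mid living cells. Neither group was treated. Age and sort gate changed together, the adult libraries came from a stranded total RNA kit for very small inputs and the kit of the fetal libraries is not given in the sources used here, so these cannot be told apart. The labels do not say whether each library is a separate animal, and p-values therefore measure only the spread between libraries, which may be technical.

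Cholesterol is built from acetyl-CoA through mevalonate, the isoprenoids, squalene and lanosterol, and the saturated fatty acids are built from the same acetyl-CoA and then elongated and desaturated. Both routes are driven by the SREBP transcription factors, which are made as membrane proteins and held in the endoplasmic reticulum by SCAP and the INSIG proteins while sterols are plentiful. When sterols are scarce SCAP carries SREBP to the Golgi, where proteases release the active part. The intestinal epithelium both makes cholesterol and absorbs it, and dividing and lipid-exporting cells need its supply.

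Total counts ran from 7888998 to 10538004 in the fetal and from 5795518 to 6045113 in the adult libraries, and all 32 genes passed the filter on low counts. Of the 13314 genes that passed this filter, 29.0% were called higher and 25.9% lower in fetal cells (test given below). The marker counts that follow stand beside these shares. The epithelial markers were present in both groups, with a summed level of 5493 to 5618 CPM (CPM being counts scaled to a common library size) in fetal and 8702 to 9143 CPM in adult libraries, and 9 of 10 were lower in fetal cells. Crypt stem cell markers (7 of 7) and proliferation markers (7 of 8) were lower in fetal cells, and enterocyte markers were higher (7 of 8, with 1 lower), at 6644 to 8502 against 2282 to 2715 CPM. Goblet markers had the largest summed level of any marker list in adult cells, 15920 to 29680 CPM against 4379 to 6540 CPM in fetal libraries (6 of 6 lower). Paneth markers were lower too (4 of 5; 23.4 to 38.1 against 159 to 243 CPM), and 5 of 6 enteroendocrine markers were higher and 1 lower (1963 to 2697 against 1810 to 2186 CPM). Of the marker lists for cells from outside this epithelium, several were also higher and others were not. The only endothelium marker that could be tested was lower. Immune markers were mixed (2 of 3 tested higher, 1 lower), at 20.8 to 22.3 against 20.2 to 23.5 CPM. Liver markers were mixed too (1 of 2 tested higher, 1 lower), at 92.1 to 114 against 59.0 to 90.5 CPM. Mesenchyme markers summed to 148 to 207.9 against 7.26 to 15.9 CPM (9 of 9 tested higher; Lum and Sparc at 0 in adult), and pancreatic exocrine markers to 745 to 1613 against 3.18 to 4.92 CPM (8 of 8 tested higher; Prss2 and Amy2b at 0 in adult). Erythroid markers summed to 31.6 to 55.6 against 0.509 to 1.38 CPM (3 of 3 tested higher; Hbb-bt and Hba-a1 at 0 in adult). Mesothelium markers summed to 32.2 to 39.65 against 0 to 0.177 CPM, and neuron and glia markers to 38.9 to 59.0 against 4.58 to 5.13 CPM. In each of these lists only 1 marker could be tested, and it was higher. Stomach markers summed to 25.8, 23.2 and 298 CPM in fetal replicates 1 to 3 and to at most 0.173 CPM in adult libraries (2 of 2 tested higher; Muc5ac, Cym and Gkn1 at 0 in adult), so that fetal replicate 3 stood apart. The part of these cell types in the results below was not tested. In bulk RNA a difference in the number of cells of a type and a difference in RNA per cell cannot be told apart.

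Most of the 32 listed genes were more abundant in fetal epithelium. The list was chosen with earlier results of these data known, so its share of calls is a description only. Other genes of the same pathways, described below, were called in both directions. Of the 32 genes, 26 were called higher in fetal cells (edgeR quasi-likelihood test, Benjamini-Hochberg adjusted p under 0.05 over all genes), where 29.0% of the 13314 tested genes were. The 2 called lower were Ebp and Scap, where 25.9% of all genes were called lower, and Idi1, Insig2, Srebf2 and Elovl6 were not called. The median log2 fold change of the 32 genes was 0.67, beside 0.01 over all tested genes. In 26 of the 32, all 3 fetal libraries lay above all 3 adult libraries, as in 32.7% of all genes. The log2 fold changes of the 26 ran from 0.35 (Acaca) to 7.62 (Scd1), and without Scd1 and Scd2 the median of the other 30 genes was 0.66. The plot of levels by library shows the widest gaps between the groups for Scd1, Scd2 and Mylip, followed by Insig1, whose lowest fetal library (241 CPM) lay far above its highest adult one (80.1 CPM).

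**Figure D1:**
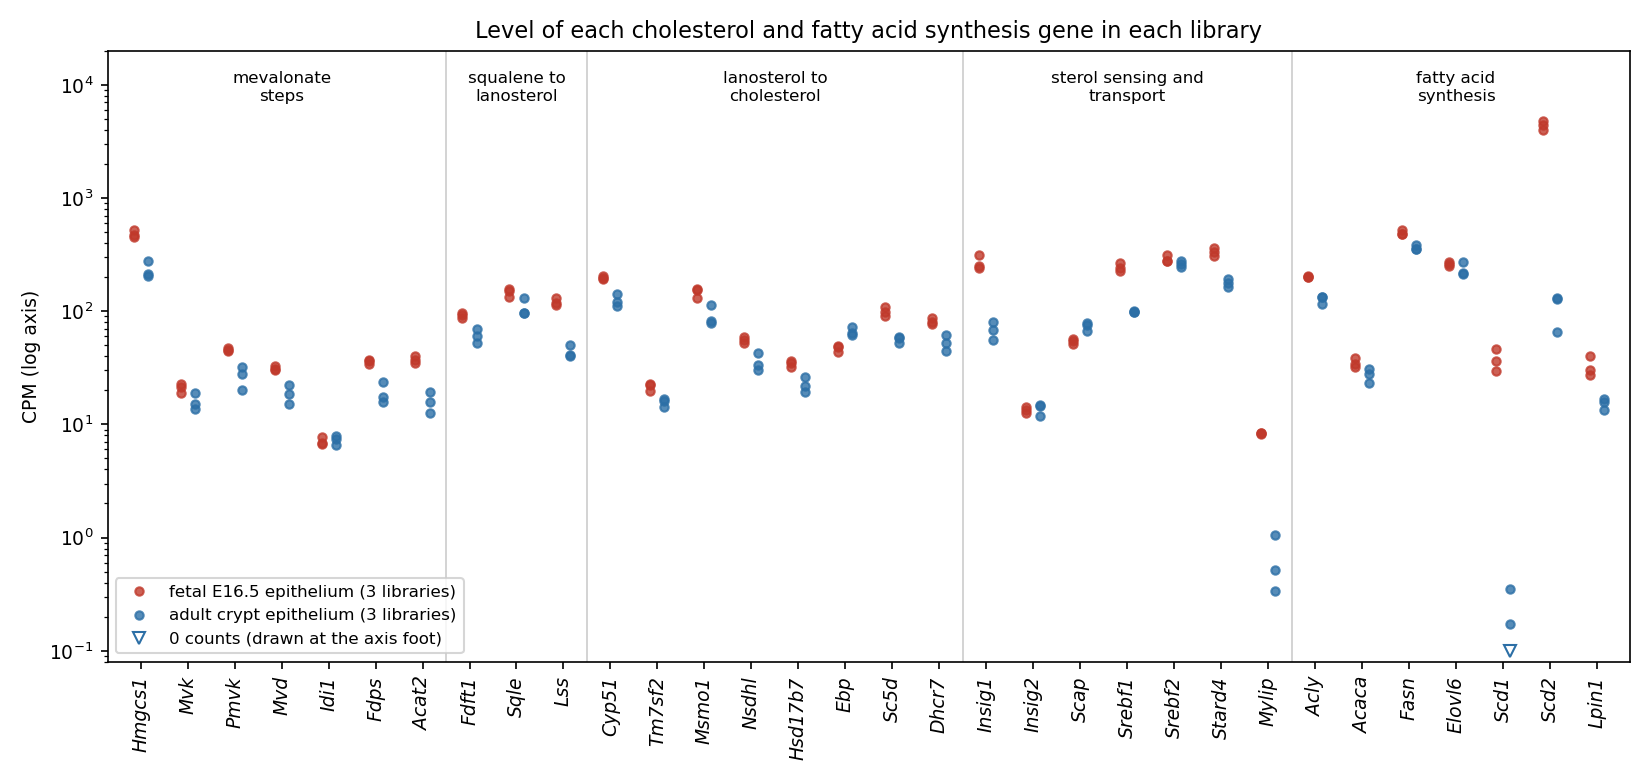
CPM on a log axis of each of the 32 genes in the 3 fetal (red) and 3 adult (blue) libraries, grouped by role, with 1 point per library and an open triangle for 0 counts. Scd2 stands at 4021 to 4815 CPM in fetal libraries, above every other gene shown, and Scd1 and Mylip lie near or below 1 CPM in adult libraries.

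The start sites of these genes were read for letters that SREBP and its partner factors are known to bind. RefSeq promoter sequences (GRCm38.p6, 250 bases before to 50 after the start site) were matched for 26 of the 32 genes. None was matched for Scd1, Scd2, Stard4, Sqle, Fdps and Fdft1, which were therefore not searched. The matched sequences are 34 windows, because 5 genes have several start sites in the table. A gene was counted where any of its windows held the letters. The patterns searched, on both strands, were the core of the sterol regulatory element (TCACNCCAC), and CCAAT, the box of NF-Y, a factor that binds beside SREBP. GGGCGG was searched as the box of SP1. Only exact matches were counted, so a site that differs from these patterns by a letter would be missed. The CCAAT box was present in 21 of 26 genes (80.8%), beside 43.2% of the 10573 tested genes with a promoter in the table. Counted by window it was in 22 of 34 (64.7%), beside 38.0% of the windows of those genes. The SP1 box was in 21 of 26 (80.8%), beside 67.7%, and the sterol element core in 1 of 26 (3.85%), beside 1.37%. A match is a description of the letters and not evidence of binding. The genes were chosen by name from routes driven by SREBP, so these shares may follow from the choice of the list. They do not depend on the fetal and adult counts and say nothing of the difference between the groups.

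The first promoter shown is that of Hmgcs1, which alone of the 26 genes with a matched promoter held the sterol element core. Those of Insig1, Mylip and Lss are shown for the largest fold changes among these 26 genes, Scd1 and Scd2 having no matched promoter. The last is that of Ebp, which was lower in fetal cells. Capitals mark the sterol element core and the CCAAT boxes on either strand (ATTGG on the other), which do not overlap each other, and the rest is in lower case, 5′ to 3′ in the direction of the gene.
Hmgcs1 (chr13:119690101-119690400, plus strand): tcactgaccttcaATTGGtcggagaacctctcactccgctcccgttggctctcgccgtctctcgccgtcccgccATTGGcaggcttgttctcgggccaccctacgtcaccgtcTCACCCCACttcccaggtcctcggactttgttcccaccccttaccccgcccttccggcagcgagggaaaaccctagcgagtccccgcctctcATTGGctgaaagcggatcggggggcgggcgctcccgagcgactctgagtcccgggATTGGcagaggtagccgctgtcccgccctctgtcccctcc
Insig1 (chr5:28071162-28071461, plus strand): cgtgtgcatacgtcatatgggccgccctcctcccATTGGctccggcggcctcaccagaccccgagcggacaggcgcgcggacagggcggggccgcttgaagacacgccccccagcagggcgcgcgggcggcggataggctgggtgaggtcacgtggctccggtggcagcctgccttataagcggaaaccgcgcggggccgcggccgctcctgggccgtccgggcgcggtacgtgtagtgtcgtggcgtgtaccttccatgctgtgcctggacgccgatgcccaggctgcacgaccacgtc
Mylip (chr13:45389492-45389791, plus strand): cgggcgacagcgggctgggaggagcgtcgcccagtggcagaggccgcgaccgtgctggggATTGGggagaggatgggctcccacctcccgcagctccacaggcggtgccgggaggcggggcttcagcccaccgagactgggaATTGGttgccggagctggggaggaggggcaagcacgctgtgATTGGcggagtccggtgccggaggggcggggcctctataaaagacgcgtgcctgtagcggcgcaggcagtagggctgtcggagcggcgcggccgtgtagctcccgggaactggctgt
Lss (chr10:76531355-76531654, plus strand): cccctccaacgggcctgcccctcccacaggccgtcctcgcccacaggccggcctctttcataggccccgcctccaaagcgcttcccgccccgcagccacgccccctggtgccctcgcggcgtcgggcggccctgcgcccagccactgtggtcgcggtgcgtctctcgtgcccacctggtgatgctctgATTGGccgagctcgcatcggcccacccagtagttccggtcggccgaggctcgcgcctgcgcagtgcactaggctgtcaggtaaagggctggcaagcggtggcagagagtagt
Ebp (chrX:8193463-8193762, minus strand): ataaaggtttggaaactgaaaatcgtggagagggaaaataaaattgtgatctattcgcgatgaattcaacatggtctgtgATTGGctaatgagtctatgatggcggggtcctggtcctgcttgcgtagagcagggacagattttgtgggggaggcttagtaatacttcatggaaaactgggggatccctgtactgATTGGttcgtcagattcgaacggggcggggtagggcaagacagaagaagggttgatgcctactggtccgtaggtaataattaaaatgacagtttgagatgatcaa

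In Hmgcs1 the sterol element core lies at position −137 from the start site, between CCAAT boxes at −176 and −45. The 21 genes held 46 CCAAT boxes in all, of which 42 began before their start site and 27 within the last 100 bases before it, and 12 genes had 2 or more in 1 promoter. A CCAAT box was present in 17 of the 20 genes that were called higher and have a promoter in the table (it was not found in the windows of Acaca, Acat2 and Lpin1). For Acaca and Lpin1 the table holds only an internal start site, 65.8 and 42.9 kilobases inside the gene as annotated, so the window at the outer end of these genes was not searched. It was also present in Ebp, which was lower, and in 3 of the 4 genes that were not called (Idi1, Insig2 and Srebf2). Genes of all 3 kinds of call thus held the box.

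In the mevalonate steps 6 of 7 genes were higher in fetal epithelium, beside 29.0% of all tested genes, and 1, Idi1, was not called. Hmgcs1, which joins acetyl units into HMG-CoA (chromosome 13, 119690351 to 119708260), gave 467.9, 452 and 519 CPM in the fetal and 278, 214 and 204 CPM in the adult libraries, each in the order of replicates 1 to 3 as below. All fetal libraries were above all adult ones, by a log2 fold change of 1.05 ± 0.11 (SE; edgeR adjusted p = 5.46e-06). Acat2, the cytosolic thiolase at the head of the route, was at 37.2, 35.2 and 39.9 against 12.6, 19.2 and 15.9 CPM. Its log2 fold change was 1.24 ± 0.15 (adjusted p = 1.36e-05), the largest of the 7.

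The kinases and the decarboxylase that turn mevalonate into the first isoprenoid were higher by less. Pmvk, phosphomevalonate kinase, and Mvd, the decarboxylase, had log2 fold changes of 0.77 ± 0.15 and 0.75 ± 0.14. Fdps, which makes farnesyl diphosphate, had 0.93 ± 0.15, at 34.0 to 37.3 CPM in fetal and 15.6 to 23.9 CPM in adult libraries. Mvk, mevalonate kinase, was at 23.0, 21.5 and 19.0 against 19.1, 13.6 and 15.0 CPM, so that the groups overlapped. It was called at 0.41 ± 0.16 (adjusted p = 0.0459), but not with DESeq2 (adjusted p = 0.0682), nor without fetal replicate 1 or 2 or adult replicate 2 or 3 (adjusted p from 0.0172 to 0.172 over the left-out libraries). Idi1, the isomerase of the isoprenoid unit, was at 6.74 to 7.69 CPM in fetal and 6.54 to 7.95 CPM in adult libraries, a log2 difference of −0.04 (95% interval −0.49 to 0.40) whose sign changes with the scaling. Idi1 was the gene of lowest level per kilobase of exon in fetal cells (2.02 CPM per kilobase).

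The reads of several of these genes may be shared with other genes. Of the 50-base words in the longest transcript, 45.9% in Acat2 also occur in another gene, mostly its neighbour Acat3, and 30.5% in Idi1, mostly in a processed pseudogene. The share was 13.6% in Hmgcs1, with an antisense RNA over its exons, and 11.7% in Fdps. In Fdps 26.7% of the exon bases are also overlapped, most by Gm43738 on the same strand. How such reads were counted is not given in the sources used here, so the levels of these 4 genes are uncertain.

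All 3 enzymes from farnesyl diphosphate to lanosterol were higher in fetal epithelium, beside 29.0% of all tested genes. Lss, which closes squalene epoxide into lanosterol (chromosome 10, 76531565 to 76557139), was at 114, 119 and 131 CPM in fetal and 50.7, 39.9 and 40.8 CPM in adult libraries. Its log2 fold change of 1.47 ± 0.11 (adjusted p = 1.33e-07) was the largest of the 18 sterol synthesis enzymes. Sqle, squalene epoxidase, an oxygen-dependent step of the route, was at 152, 135 and 158 against 131, 96.2 and 96.5 CPM. The fetal libraries lay just above the adult ones, with 135 CPM as the lowest fetal and 131 CPM as the highest adult value (0.46 ± 0.12, adjusted p = 0.00534). Fdft1, squalene synthase, had 0.60 ± 0.11 (adjusted p = 3.78e-04). Its exons overlap those of Ctsb on the other strand over 18.3% of their bases, and 30.7% of its 50-base words also occur in other genes, so its level is uncertain.

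Of the 8 enzymes that turn lanosterol into cholesterol, 7 were higher in fetal epithelium and Ebp was lower. Over all tested genes 29.0% were higher and 25.9% lower. The 7 log2 fold changes lay between 0.46 and 0.82. Sc5d, a sterol desaturase, was at 90.6, 98.7 and 108.5 CPM against 58.9, 51.9 and 58.3 CPM (0.82 ± 0.10, adjusted p = 1.30e-05). Cyp51, the lanosterol demethylase, was at 203, 193 and 198 against 143, 119.6 and 111 CPM (0.67 ± 0.10, adjusted p = 6.63e-05). The fetal libraries of both genes lay above all adult ones.

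The demethylation enzymes Msmo1, Nsdhl and Hsd17b7 had log2 fold changes of 0.69 ± 0.13, 0.65 ± 0.13 and 0.62 ± 0.13, and Dhcr7, the last reductase of the route, had 0.62 ± 0.12. Tm7sf2, a sterol reductase, had 0.46 ± 0.14 (adjusted p = 0.0134), and was not called without adult replicate 1 (adjusted p = 0.0556). The exons of Tm7sf2 overlap those of Vps51 over 12.1% of their bases, so its level is uncertain. Ebp, the sterol isomerase that moves a double bond in the ring (chromosome X, 8185329 to 8193512), was at 43.3, 49.0 and 48.7 CPM in fetal and 64.0, 61.4 and 71.9 CPM in adult libraries. All fetal libraries were below all adult ones, by −0.48 ± 0.10 (adjusted p = 0.00124), and the call held in each alternative run.

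**Figure D2:**
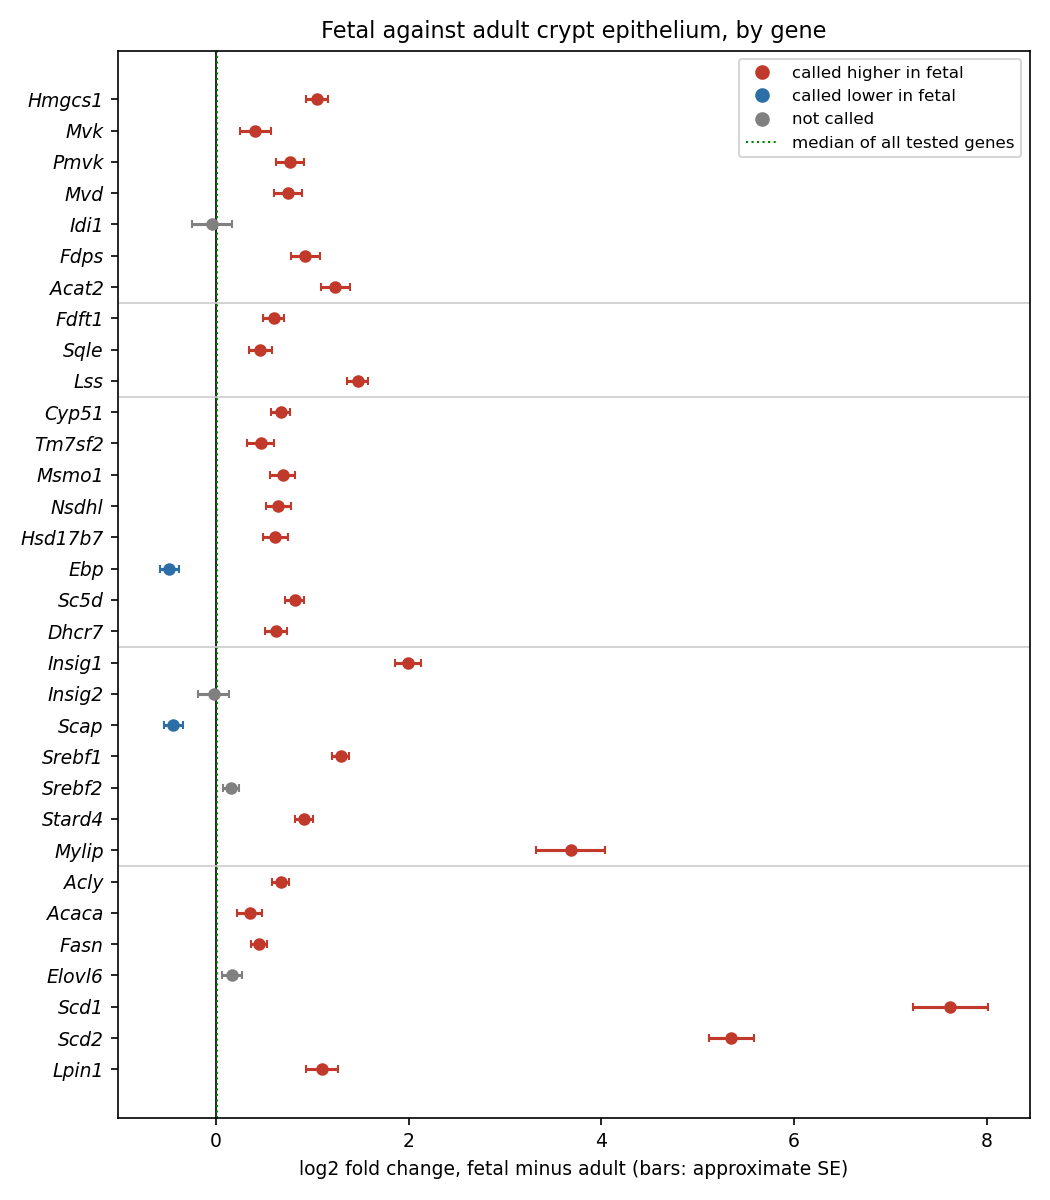
Log2 fold change of each gene, fetal minus adult, with bars of 1 approximate SE, in the order of the pathway; red points were called higher, blue points lower and grey points were not called, and the dotted line is the median of all tested genes (0.01). The enzymes of sterol synthesis sit between 0.41 and 1.47 except Idi1 and Ebp, and Mylip, Scd2 and Scd1 lie at 3.68, 5.35 and 7.62.

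Among the genes of sterol sensing and transport, 4 of 7 were higher, 1 was lower and 2 were not called. Over all tested genes 29.0% were higher and 25.9% lower. In each pair of related genes 1 was called and the other was not. Insig1, which holds SCAP in the endoplasmic reticulum and is itself a target of SREBP (chromosome 5, 28071412 to 28078662), was at 249, 241 and 316 CPM in fetal and 80.1, 55.3 and 67.8 CPM in adult libraries. The fetal libraries were all above the adult ones, by 1.99 ± 0.14 (adjusted p = 7.26e-08). Insig2, its relative, was at 13.3, 12.7 and 14.2 against 14.5, 14.8 and 11.8 CPM, with overlapping groups and a log2 difference of −0.03 (95% interval −0.38 to 0.33) whose sign changes with the scaling. Per kilobase of exon, Insig1 stood 21.0-fold, 21.3-fold and 25.1-fold above Insig2 in fetal libraries and 6.20-fold, 4.21-fold and 6.47-fold above it in adult libraries. The ratios did not overlap, with an exact two-sided permutation p of 0.1, the smallest that 3 against 3 allows.

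Of the genes that encode the SREBP proteins, Srebf1 was called higher and Srebf2 was not called. Srebf1, which encodes the SREBP forms tied mainly to fatty acid synthesis (chromosome 11, 60199084 to 60224186), was at 264, 225 and 241 CPM in fetal and 99.2, 98.2 and 100.4 CPM in adult libraries. That is a log2 fold change of 1.29 ± 0.09 (adjusted p = 5.13e-08). Srebf2, tied mainly to cholesterol synthesis, was at 314, 278.4 and 277.9 against 277.2, 260.4 and 244 CPM. The fetal libraries were above the adult ones by a small gap, with a log2 difference of 0.16 (95% interval −0.03 to 0.34; adjusted p = 0.146), and Srebf2 was called in none of the alternatives run. Per kilobase of exon, the ratio of Srebf1 to Srebf2 was 1.03 to 1.11 in fetal and 0.456 to 0.526 in adult libraries (exact two-sided permutation p = 0.1, the smallest possible). The counts do not separate the 2 forms of Srebf1 that start at different promoters.

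Scap, the sterol sensor that escorts SREBP, was lower in fetal epithelium. It was at 56.9, 54.6 and 51.5 CPM in fetal and 67.0, 78.6 and 75.7 CPM in adult libraries, without overlap (−0.44 ± 0.10, adjusted p = 0.00160). A transcript on the other strand overlaps 13.2% of its exon bases, so its level is uncertain. Stard4, which moves cholesterol between membranes inside the cell, was higher, at 335, 306 and 363 against 193, 163 and 177 CPM (0.92 ± 0.09, adjusted p = 2.95e-06).

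Mylip, the ubiquitin ligase that marks lipoprotein receptors for destruction and is a target of the sterol receptor LXR (chromosome 13, 45389742 to 45411940), was higher in fetal cells and near the limit of detection in adult cells. It was at 8.23, 8.36 and 8.44 CPM in fetal and 1.06, 0.339 and 0.519 CPM in adult libraries. These rest on 223 fetal and 11 adult counts, a ratio of 13.2 (95% counting interval 7.22 to 26.7), with a fitted log2 fold change of 3.68 ± 0.36 (adjusted p = 1.87e-06). Intervals on counts cover counting error only.

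**Figure D3:**
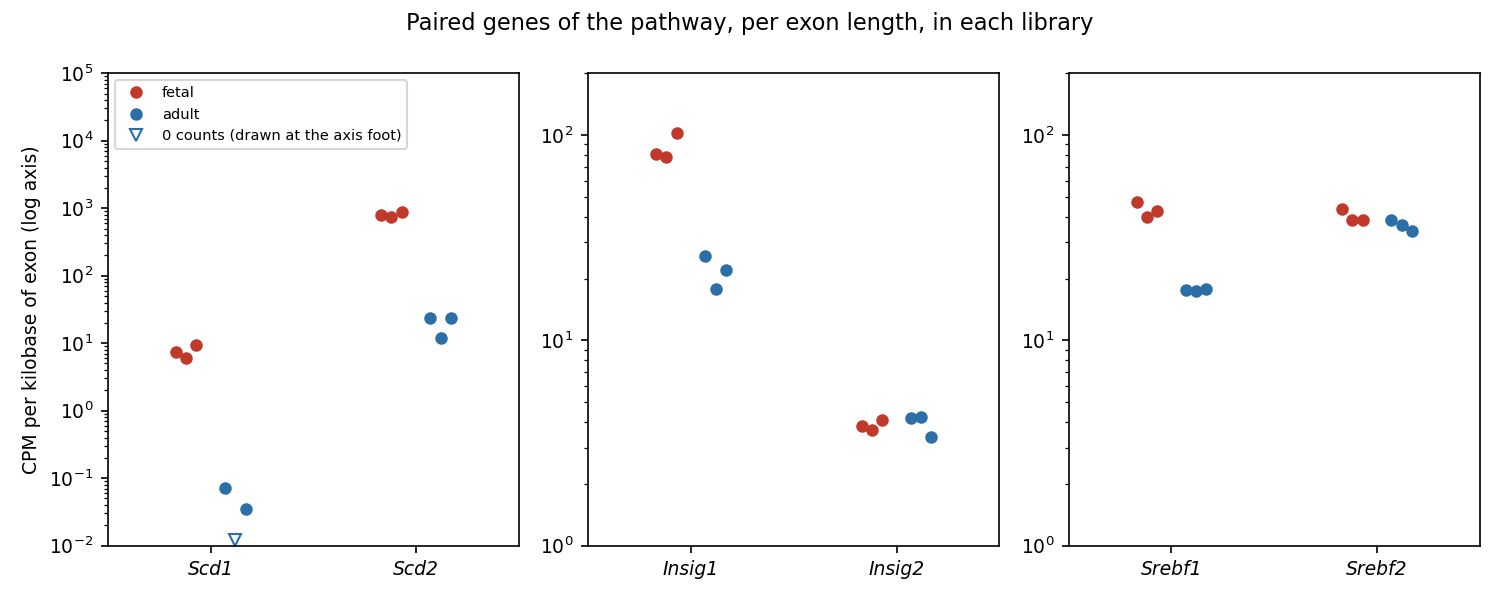
CPM per kilobase of exon on a log axis for Scd1 and Scd2, Insig1 and Insig2, and Srebf1 and Srebf2 in each library, fetal in red and adult in blue, with an open triangle for 0 counts; the first panel has a wider axis than the others. Insig1 and Srebf1 differ between the groups, the libraries of Insig2 overlap and those of Srebf2 nearly touch, and both Scd genes are lower in adult cells.

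In fatty acid synthesis, 6 of 7 genes were higher in fetal epithelium, beside 29.0% of all tested genes. The desaturases Scd1 and Scd2 differed more than any other of the 32 genes. Scd2, which puts a double bond into saturated fatty acids (chromosome 19, 44293676 to 44306864), was at 4392, 4021 and 4815 CPM in fetal and 129.7, 65.7 and 129.1 CPM in adult libraries. The lowest fetal library was far above the highest adult one, and the log2 fold change was 5.35 ± 0.23 (adjusted p = 9.14e-10). It was also the gene of highest level per kilobase of exon among the 32 in fetal cells, at 807 CPM per kilobase, followed by Hmgcs1 at 104 and Insig1 at 86.9.

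Scd1, its neighbour on the same chromosome (44394450 to 44407709), was at 36.2, 29.7 and 46.0 CPM in fetal and 0.354, 0 and 0.173 CPM in adult libraries. These rest on 1019 fetal and 3 adult counts, a ratio of 221 (95% counting interval 75.2 to 1071). The fitted log2 fold change of 7.62 ± 0.39 (adjusted p = 4.73e-09) depends on these few adult counts, and was 8.52 without adult replicate 1 and 7.06 without adult replicate 2. Scd1 was thus close to absent from the adult libraries, whereas Scd2 was still read there. Per kilobase of exon, Scd2 stood 108.7-fold, 121-fold and 93.7-fold above Scd1 in the fetal libraries, and 329-fold and 669-fold above it in adult replicates 1 and 3. Scd1 shares 145 of its 4783 50-base words with Scd2 (3.03%), and how shared reads were assigned was not stated. Scd genes are abundant in fat cells, and both groups were sorted as EpCAM+ cells. The 4 adipocyte markers summed to 14.6 to 17.0 CPM in fetal and 3.46 to 5.60 CPM in adult libraries. Nearly all of it was Cidec, the only 1 of the 4 that could be tested, which was higher in fetal cells (1.74 ± 0.21, adjusted p = 1.26e-05). Adipoq and Lep had 0 counts in all fetal libraries, and Plin1 and Lep in all adult libraries. The part of fat cells in the Scd values was not tested. Other cell types from outside the epithelium also had higher markers in fetal libraries. Among them were mesenchyme (148 to 207.9 against 7.26 to 15.9 CPM) and neuron and glia (38.9 to 59.0 against 4.58 to 5.13 CPM). Their part in the Scd values was not tested either.

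The enzymes that make the fatty acid chain were higher by far less. Acly, which supplies cytosolic acetyl-CoA from citrate, was at 206, 200.5 and 199.8 CPM in fetal and 132, 133 and 115 CPM in adult libraries (0.67 ± 0.08, adjusted p = 1.96e-05). Fasn, the fatty acid synthase, was at 524, 485 and 483 against 382, 358 and 354 CPM (0.45 ± 0.08, adjusted p = 4.06e-04). In both genes all fetal libraries lay above all adult ones.

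Acaca, the acetyl-CoA carboxylase that commits carbon to the route, was at 34.4, 31.9 and 38.3 against 28.1, 23.4 and 30.8 CPM, with the lowest fetal library just above the highest adult one. It was called at 0.35 ± 0.13 (adjusted p = 0.0364), but not with DESeq2 (adjusted p = 0.056), nor without fetal replicate 1 or 3 or adult replicate 1 or 2 (adjusted p from 0.0181 to 0.148 over the left-out libraries). A processed pseudogene holds most of the 52.6% of its 50-base words that occur elsewhere, so its level is uncertain. Elovl6, which lengthens palmitate, was at 263, 251 and 272 against 273, 217 and 211 CPM, with adult replicate 1 above every fetal library. Its log2 difference was 0.17 (95% interval −0.05 to 0.39, adjusted p = 0.186), and it was called without adult replicate 1 (0.29, adjusted p = 0.0193). Lpin1, a phosphatidate phosphatase that makes diacylglycerol and an SREBP target, was at 27.1, 29.9 and 40.5 against 13.4, 15.6 and 16.6 CPM (1.10 ± 0.17, adjusted p = 1.14e-04).

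The calls were also counted apart for genes whose reads may be shared. Of the 8 genes with at least 10% of their 50-base words in other genes or of their exon bases overlapped, 6 were higher, 1 was lower and 1 was not called. Of the other 24, 20 were higher, 1 was lower and 3 were not called, with a median log2 fold change of 0.68. Over all tested genes 29.0% were higher and 25.9% lower.

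Within each group the sterol genes tended to be high or low in the same library. Over the 18 sterol synthesis enzymes with Insig1 and Stard4, a set picked after the counts had been seen, adult replicate 1 was the highest adult library in 15 of 20 genes (75.0%), beside 34.4% of all tested genes. Adult replicate 2 was the lowest in 13 of 20 (65.0%), beside 34.5%. The median log2 distance from the other libraries of the group was 0.34 for adult replicate 1 and −0.18 for adult replicate 2. Fetal replicate 3 was the highest fetal library in 13 of 20 genes (65.0%), beside 35.4%, by a median of 0.12. It is also the library with the high stomach markers (298 CPM against 25.8 and 23.2 CPM), whose part in this was not tested. The spread was thus wider among the adult libraries, and leaving out adult replicate 1 gave the highest median log2 fold change of the 32 genes (0.79) and leaving out adult replicate 2 the lowest (0.60).

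**Figure D4:**
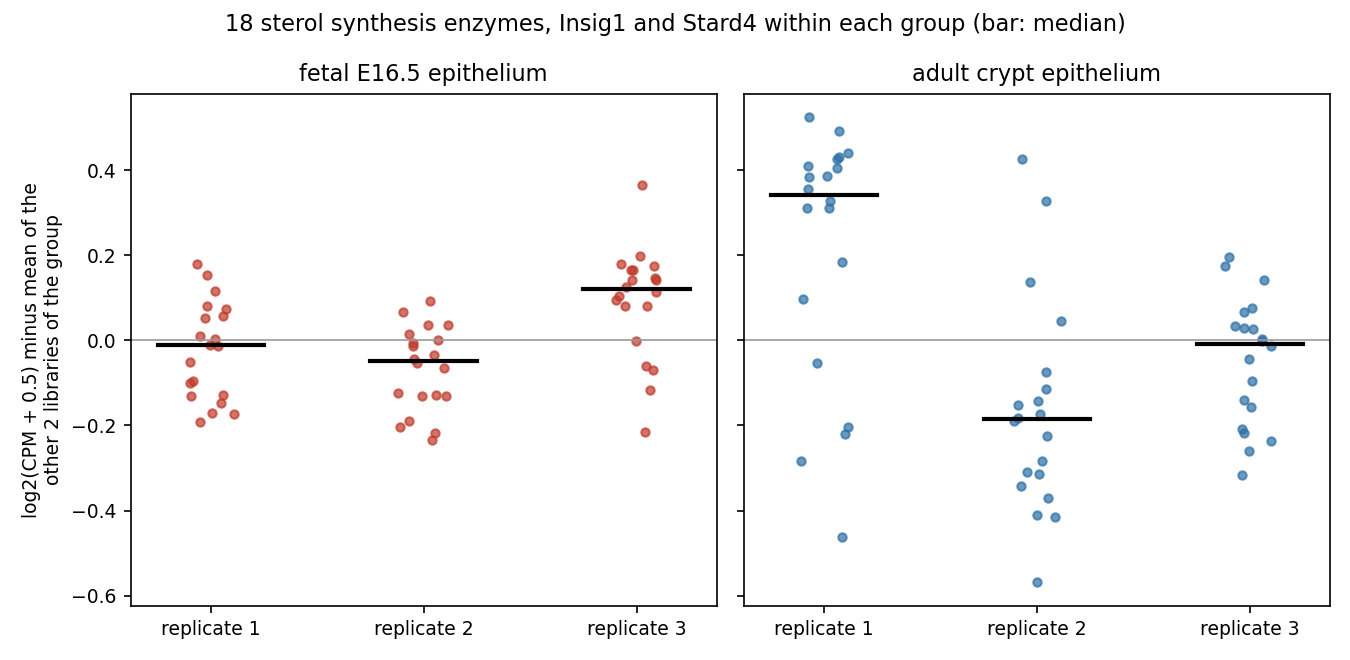
Log2(CPM + 0.5) of each of the 20 sterol genes in a library minus the mean of the other 2 libraries of its group, for fetal (left) and adult (right) replicates, with 1 point per gene and a bar at the median. Adult replicate 1 lies mostly above 0 (median 0.34) and adult replicate 2 mostly below, and the fetal libraries lie closer together.

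Genes of the same pathways outside the 32 were called in both directions. Of 81 tested genes in 5 lists of related genes, 31 were higher and 17 lower in fetal epithelium, with a median log2 fold change of 0.03, beside 29.0% and 25.9% of all tested genes. Among other genes of sterol and isoprenoid synthesis 6 of 14 were higher and 1 was lower. Por, which hands electrons to Cyp51 and Sqle, and Cyb5r3, which serves the cytochrome b5 chain, had log2 fold changes of 1.15 ± 0.09 and 1.06 ± 0.09. Pdss1, which makes the side chain of ubiquinone, had −0.77 ± 0.12. Among other genes that handle SREBP and sterol sensing 4 of 10 were higher. Mbtps2, a protease that frees SREBP, had 0.84 ± 0.13, and Pgrmc2 had 1.35 ± 0.10. Without adult replicate 2 the count of these higher genes was 2.

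Genes of sterol uptake, storage and efflux showed large changes in both directions, with 8 of 18 higher and 5 lower. Of all tested genes, 29.0% were higher and 25.9% lower. Abcg5 and Abcg8, which together export sterols into the gut lumen, were at 1.26 and 1.44 CPM on average in fetal against 33.3 and 39.4 CPM in adult libraries, log2 fold changes of −4.73 ± 0.27 and −4.71 ± 0.26. The efflux genes Abca1 and Abcg1 of the same list were called higher, so efflux genes went in both directions. Scarb1, a lipoprotein receptor, had 2.47 ± 0.14. In the other fatty acid genes 6 of 22 were higher and 9 lower, beside the same 29.0% and 25.9% of all tested genes. Me1, a source of NADPH for lipid synthesis, had 2.71 ± 0.22, whereas Mlxipl, the carbohydrate-responsive factor ChREBP, had −2.49 ± 0.15 and Acss2, which activates acetate, had −1.40 ± 0.12.

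In glycerolipid synthesis 7 of 17 were higher and 2 were lower, beside 29.0% and 25.9% of all tested genes. Dgat2, which makes triglyceride, had 2.95 ± 0.14, and the acyl-CoA synthetases Acsl4 and Acsl3 had 2.22 ± 0.14 and 1.64 ± 0.08. Gpam, which starts glycerolipid assembly, had 1.47 ± 0.10. Idi2, Elovl3, Elovl4 and Thrsp did not pass the filter on low counts.

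**Figure D5:**
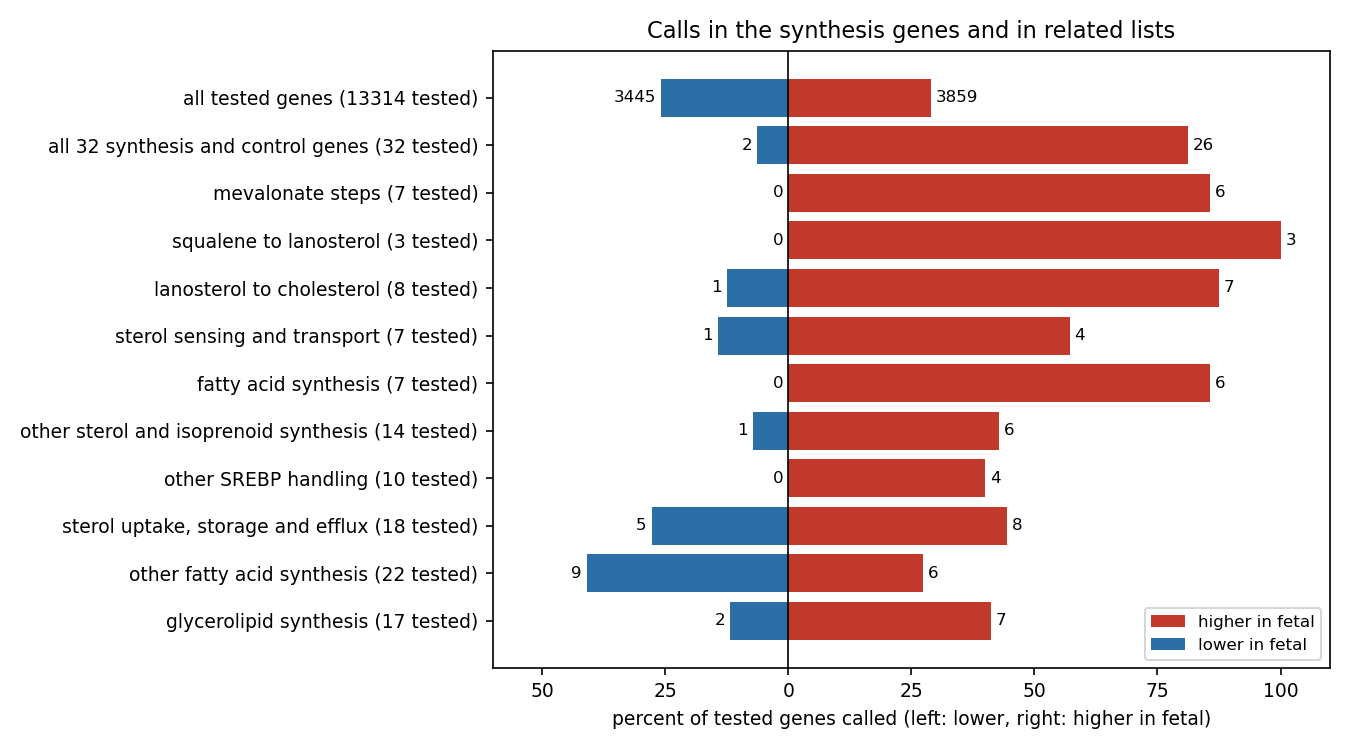
Percent of tested genes called higher (red, to the right) and lower (blue, to the left) in fetal epithelium, with the number of genes at each bar, for all tested genes, the 32 genes and their groups, and each list of other pathway genes. The groups of the 32 are mostly higher (26 of 32 in all), and the other lists hold 31 higher and 17 lower of 81 tested.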

How the data were processed

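RNA-seq counts of 6 libraries were used, 3 of fetal epithelium and 3 of adult crypts. The values are raw read counts per gene, as deposited by the authors. The submitters' processing notes name the mm10 genome and edgeR; no source used here names the aligner, the annotation or the use of strand. Of 24594 rows, 7 had no symbol, and these were kept in the library totals and went through the same filter and fit. Counts were scaled by TMM, filtered with filterByExpr (13314 genes kept) and fitted with edgeR 4.0.16 (R 4.3.3), whose quasi-likelihood F test was run with Benjamini-Hochberg adjustment over all tested genes and calls at 0.05. The biological coefficient of variation was 10.5%. SEs are approximate, as the log2 fold change over the square root of F; 95% intervals used the t distribution of the fit. CPM used TMM-scaled totals, and CPM per kilobase the exon length in GENCODE vM21. Ratios of low counts have exact 95% intervals. The ribosomal transcript Rn45s took 7.32% to 10.7% of counts. No pair of libraries agreed within sampling noise (chi-square per degree of freedom 4.83 or more).

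Alternatives were other scalings (RLE, library size only, upper quartile), DESeq2 1.42.0, no filter, a filter of 10 CPM in 3 libraries, no Rn45s, the replicate number as a block, and each library left out. The analysis was tested on simulated data. All 32 genes are named; of each list of other pathway genes, up to 4 called genes with the smallest p have values, some of which are not reported here. The 32 genes and all lists were chosen with earlier results of these data known. Gene coordinates and promoters are from RefSeq (GRCm38.p6). Protein sequences were not analysed here.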

Additional observations from a re-analysis of the deposited data

How the results depend on the processing

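The count of genes higher in fetal epithelium stayed between 24 and 26 of the 32 in each of the 14 alternatives run (24 with DESeq2, 24 to 25 with 1 library left out, 25 with the filter of 10 CPM in 3 libraries), and 2 were lower in each. The median log2 fold change of the 32 ranged from 0.60 to 0.79 with 1 library left out. With the replicate number as a replicate block 26 were higher and 2 lower; same-numbered libraries did not deviate together (r = −0.0632, −0.0352 and −0.0873 across genes), and the labels do not pair them. The sign of the log2 difference, which was not called in either gene, turned for Idi1 with library size only (0.0045), upper quartile factors (0.0010), without fetal replicate 1 (0.0052) and without adult replicate 3 (0.0242). It turned for Insig2 with library size only (0.0216), upper quartile factors (0.0164), the filter of 10 CPM (0.0190), and without fetal replicate 2 (0.0137), adult replicate 1 (0.0114) or adult replicate 2 (0.0267). With 1 library left out, Idi1 ranged from −0.1215 to 0.0242 and Insig2 from −0.1213 to 0.0267. Of the other SREBP handling genes 2 to 4 were higher with 1 library left out, and of the glycerolipid genes 2 to 3 were lower, or 1 with the filter of 10 CPM, where fewer genes were tested; the cause was not tested otherwise. Depth limits Scd1 and Mylip in adult cells, which rest on 3 and 11 counts.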
